A study of Rattus norvegicus with 6 samples.

Results

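Lymphatic endothelial genes were examined in rat corneas after corneal allografting, as 8 genes taken by symbol from the count table: Prox1, Sox18, Nr2f2, Tbx1, Lyve1, Pdpn, Reln and Mmrn1. All 8 are among the 17771 genes listed, and 7 passed the filter on low counts, Prox1 being the exception. The libraries are bulk RNA from corneas of Wistar recipients that carried grafts from SD donors. The resveratrol group was injected intraperitoneally with resveratrol, a plant polyphenol, every day until day 7 after surgery. The control group received the same transplant and daily intraperitoneal saline. Each group has 3 libraries. The labels do not state dose, age or sex, or whether a library is 1 animal or a pool. P-values therefore measure only the spread between these libraries, which may be technical. They also do not say whether the sample took in host limbus, where lymphatic vessels normally lie.

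The healthy cornea has no lymphatic vessels. After injury or grafting, lymphatic sprouts grow in from the limbus, guided mainly by VEGF-C and VEGF-D acting on the receptor VEGFR-3, and they are known as the route by which antigen-presenting cells leave the graft for the draining lymph nodes. In mouse embryos SOX18 and NR2F2 switch on Prox1 in venous endothelium, and PROX1 then sets and keeps lymphatic identity. None of the 8 genes, Prox1 included, belongs to lymphatic endothelium alone. Lyve1 is also made by macrophages, Pdpn by fibroblasts and basal epithelium, Sox18 by blood vessel endothelium and Nr2f2 by veins and mesenchyme. Tbx1 is also made by epithelial and mesodermal cells, Reln by neurons and Mmrn1 by platelets.

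Total gene counts ran from 35068936 to 37460756 per library, so depth was similar throughout. Replicate 1 of each group carries the ending Sep in its description and replicates 2 and 3 carry Oct, with no word on what the endings mean. In edgeR's quasi-likelihood test 0 of 14213 genes (0%) passed an adjusted p of 0.05, with 2782 (19.6%) at an unadjusted p under 0.05, 11.7% lower and 7.84% higher in resveratrol. DESeq2, run beside it, called 6.87% of 14666 genes, 4.64% lower and 2.23% higher in resveratrol. The groups did not overlap in CPM (read counts scaled to a common library size with TMM factors) for 26.5% of the tested genes, 14.4% lower and 12.2% higher in resveratrol.

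Of the 8 members, Sox18 and Tbx1 were lower in every resveratrol library than in any control library, with fitted levels 0.494 and 0.541 times those of control, and Reln, Mmrn1, Lyve1, Nr2f2, Pdpn and Prox1 overlapped between the groups. By edgeR 0 of 7 tested members passed, with 2 at an unadjusted p under 0.05, Sox18 and Tbx1. DESeq2 called the same 2 as lower. Of the tested members 6 had a lower mean in resveratrol, where 51.2% of all tested genes did, and Pdpn had a higher one. Their median log2 fold change (resveratrol minus control) was -0.39, against -0.0080 over all tested genes. It was -0.092 without control 2 and -0.76 without control 3. In bulk tissue, fewer cells of a type and less RNA per cell cannot be told apart.

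**Figure D1:**
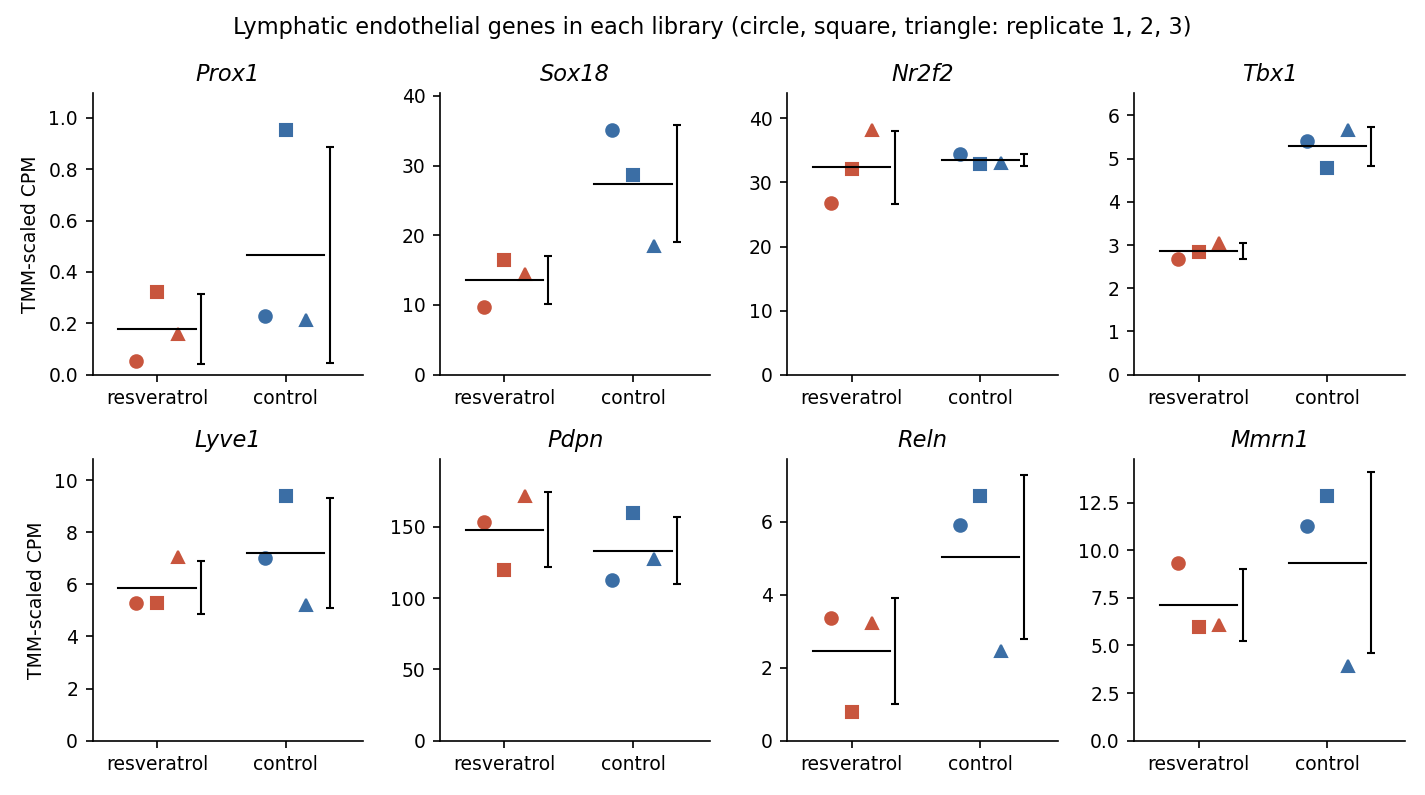
TMM-scaled CPM (y axes, each from 0) of the 8 members in the 3 resveratrol and 3 control libraries; horizontal lines are means and bars 1 SD. Sox18 and Tbx1 separate the groups, while the other 6 overlap, and control 2 is the highest library for Prox1, Lyve1, Reln and Mmrn1.

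The transcription factor that defines the lineage, Prox1, was close to the lower limit of these libraries. It had 2, 12 and 6 counts in resveratrol libraries 1, 2 and 3, against 8, 35 and 8 counts in control libraries 1, 2 and 3. Control 2 stood well above the other 5 libraries, and resveratrol 2 exceeded control 1 and control 3, so the groups overlapped. Fitted without the filter on low counts, Prox1 differed by -1.36 on the log2 scale (edgeR adjusted p = 0.444), and by -0.30 when control 2 was left out. No difference in Prox1 was detected, with few counts and a wide spread between the control libraries.

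Sox18, a SOX F factor active in lymphatic and blood vessel endothelium, had 9.72, 16.4 and 14.5 CPM in resveratrol libraries 1, 2 and 3, against 35.1, 28.6 and 18.5 CPM in control libraries 1, 2 and 3. The lowest control library, control 3, lay only a little above the highest resveratrol library. The log2 fold change was -1.02 ± 0.27 (edgeR estimate ± SE from limma, as for all values below), with an edgeR adjusted p of 0.136 and a DESeq2 adjusted p of 0.00953. Without resveratrol 1, control 1 or control 2 the DESeq2 call was lost (adjusted p = 0.0676, 0.0937 and 0.0875), and without control 3 it was at 0.000239. The difference in log2 CPM was -1.84 between the Sep libraries, 1 per group, and -0.58 in the Oct libraries.

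Tbx1, a T-box factor that mouse embryos need for lymphatic vessel growth, had 2.68, 2.85 and 3.05 CPM in resveratrol libraries 1, 2 and 3. It had 5.40, 4.79 and 5.66 CPM in control libraries 1, 2 and 3. The replicates of each group lay close together and the groups were well apart. The log2 fold change was -0.89 ± 0.17, with an edgeR adjusted p of 0.103, which missed the threshold, and a DESeq2 adjusted p of 0.00134. Leaving out any 1 library kept the DESeq2 adjusted p between 0.00770 and 0.0274 (edgeR 0.125 to 0.280). In the Oct libraries alone DESeq2 gave 0.162. The difference in log2 CPM was -0.999 between the Sep libraries and -0.81 in the Oct libraries.

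Nr2f2, also called COUP-TFII, a nuclear receptor of venous and lymphatic endothelium, had 26.8, 32.1 and 38.2 CPM in resveratrol, against 34.5, 33.0 and 33.0 CPM in control. The resveratrol values lay on both sides of the tightly grouped control values. The difference in log2 CPM was -0.063, with a 95% interval of -0.37 to 0.24 (limma), and its sign turned without resveratrol 1.

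Promoter sequence is shown for Tbx1, the member whose groups lay furthest apart relative to their spread, and for Pdpn, the only tested member with a higher mean in resveratrol. RefSeq promoter entries of the assembly GRCr8 were matched by symbol for 5 of the 8 members. The lines give the 250 bases before the gene start, 5′ to 3′ on the gene's strand, with capitals marking motif matches.
Tbx1 (GRCr8 chr11:95913360-95913609, + strand): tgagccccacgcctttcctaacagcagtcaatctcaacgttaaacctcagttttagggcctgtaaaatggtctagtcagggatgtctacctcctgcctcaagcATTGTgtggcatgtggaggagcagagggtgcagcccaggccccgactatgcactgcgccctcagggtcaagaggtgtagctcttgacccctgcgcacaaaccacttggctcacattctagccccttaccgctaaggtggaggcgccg
Pdpn (GRCr8 chr5:160918960-160919209, - strand): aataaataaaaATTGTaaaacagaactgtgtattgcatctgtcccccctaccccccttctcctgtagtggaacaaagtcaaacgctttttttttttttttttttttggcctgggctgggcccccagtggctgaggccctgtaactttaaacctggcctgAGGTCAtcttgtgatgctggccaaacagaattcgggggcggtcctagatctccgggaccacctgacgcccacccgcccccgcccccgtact
Both strands were searched for ACAAT (the SOX core), CCGGAA (ETS), AGGTCA (the COUP-TF core) and GGTGTGA (T-box). These letters occur in 29.6%, 13.4%, 13.7% and 3.19% of 27457 promoter windows of the same length. The Tbx1 window holds 1 match, the SOX core on the opposite strand (ATTGT), 147 to 143 bases before the start. The Pdpn window holds the SOX core, also as ATTGT, at 239 to 235 bases and the COUP-TF core at 91 to 86 bases before the start. These matches describe the letters of the windows and were not tied to the expression values.

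Lyve1, a hyaluronan receptor, had 5.27, 5.29 and 7.06 CPM in resveratrol, against 7.01, 9.39 and 5.20 CPM in control. Control 2 was the highest library and control 3 the lowest, so the groups overlapped. The log2 fold change was -0.29 ± 0.24 (edgeR adjusted p = 0.537) and -0.056 without control 2. Mrc1 and Cd163, receptors of tissue-resident macrophages, which can carry LYVE1, averaged 40.7 ± 9.58 and 19.2 ± 3.91 CPM in resveratrol, against 37.7 ± 7.54 and 17.8 ± 5.59 CPM in control (SD, n = 3 each). The means of both genes thus differed by less than their SDs. Chosen after their values were seen, they are the only 2 of 11 tested macrophage markers with a higher mean in resveratrol. The other 9 had lower means (list median log2 fold change -0.66). Among these were Csf1r (-0.90 ± 0.24), C1qa (-0.95 ± 0.23), Folr2 (-0.52 ± 0.26) and Stab1 (-0.38 ± 0.17). The part of macrophages in the Lyve1 level was not tested.

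Pdpn, the mucin-type glycoprotein podoplanin that binds the platelet receptor CLEC-2, had 153, 120 and 171 CPM in resveratrol, against 113, 159 and 128 CPM in control. The groups were interleaved, with resveratrol 3 highest and control 1 lowest. The difference in log2 CPM was 0.15, with a 95% interval of -0.24 to 0.54 (limma). Clec1b, which encodes CLEC-2, had 0, 2 and 3 counts in resveratrol and 3, 1 and 2 counts in control and was not tested.

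Reln encodes reelin, a secreted glycoprotein known from neuronal migration and also made by collecting lymphatic vessels in mice. It had 3.36, 0.779 and 3.21 CPM in resveratrol, against 5.89, 6.69 and 2.47 CPM in control. Resveratrol 2 was far below the rest, and control 3 fell among the resveratrol libraries. The log2 fold change of -1.03 ± 0.61 had an edgeR adjusted p of 0.359, and it was -0.61 without resveratrol 2. Mmrn1, which encodes multimerin-1, a secreted protein of endothelium and platelets, had 9.31, 5.99 and 6.08 CPM in resveratrol, against 11.3, 12.8 and 3.91 CPM in control. Control 3 was the lowest of all 6 libraries and the other controls the highest. The log2 fold change was -0.39 ± 0.44 (edgeR adjusted p = 0.635), and it was -0.76 without control 3 and -0.092 without control 2.

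**Figure D2:**
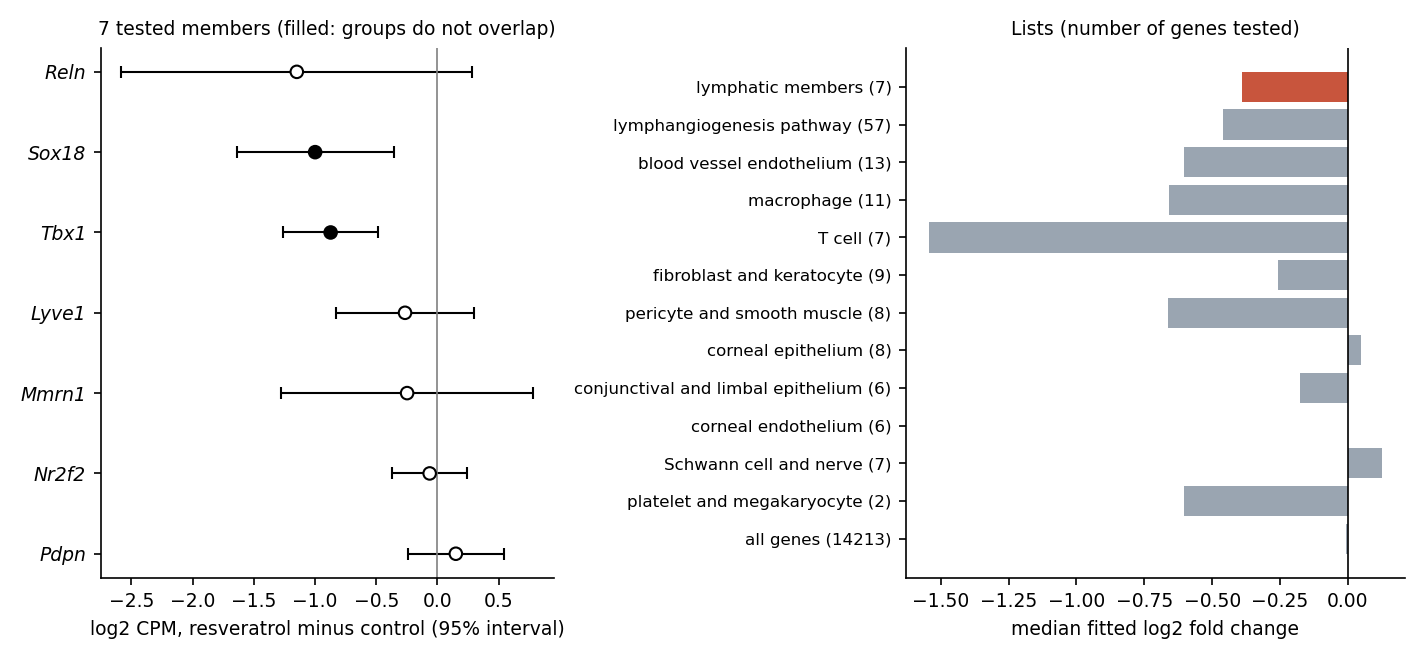
Left, difference in log2 CPM of the 7 tested members (points, filled where the groups do not overlap) with 95% intervals from limma; right, median fitted log2 fold change of the gene lists. The intervals of Sox18 and Tbx1 lie below 0 and the other 5 include 0. The members' median of -0.39 is smaller in size than those of blood vessel (-0.60), macrophage (-0.66) and T cell (-1.54) markers. It is larger in size than those of fibroblast and keratocyte (-0.26) and corneal epithelium (0.049) markers. Without control 2 the members' median was -0.092, and without control 3 it was -0.76.

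Per unit of transcript length, members spanned a wide range of levels. By the authors' FPKM, averaged over the 6 libraries, the order was Pdpn at 76.3, Sox18 at 12.6, Nr2f2 at 6.41, Tbx1 at 2.48, Lyve1 at 2.13, Mmrn1 at 1.73, Reln at 0.245 and Prox1 at 0.0779 FPKM. Neighbours whose order turned in some library were Tbx1 with Lyve1, Lyve1 with Mmrn1, and Reln with Prox1. Pdpn lay above Sox18, Sox18 above Nr2f2, Nr2f2 above Tbx1 and Mmrn1 above Reln in all 6 libraries. The ranges of Sox18 and Nr2f2 over the libraries overlapped. Prox1, the factor that sets lymphatic identity, was thus the lowest of the 8, and the highest, Pdpn, is one that other corneal cells also make.

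Flt4 and Ccl21, further genes of lymphatic endothelium, had far more counts than Prox1. Flt4 encodes VEGFR-3 and had 8.08, 9.26 and 14.3 CPM in resveratrol, against 12.7, 17.8 and 10.1 CPM in control (log2 fold change -0.36 ± 0.27, edgeR adjusted p = 0.503). Ccl21, the chemokine that draws CCR7-bearing dendritic cells into lymphatic vessels, had 41.9, 24.9 and 57.7 CPM in resveratrol, against 39.2, 92.5 and 42.0 CPM in control (-0.48 ± 0.40, edgeR adjusted p = 0.539). Both overlapped between the groups, and both were highest in control 2. Control 2 was also the highest library for 4 of the 8 members, Prox1, Lyve1, Reln and Mmrn1, where it was the highest for 19.2% of all tested genes. Stab2, a scavenger receptor of sinusoidal and lymphatic endothelium, had 4, 16 and 11 counts in resveratrol and 2, 0 and 11 counts in control.

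**Figure D3:**
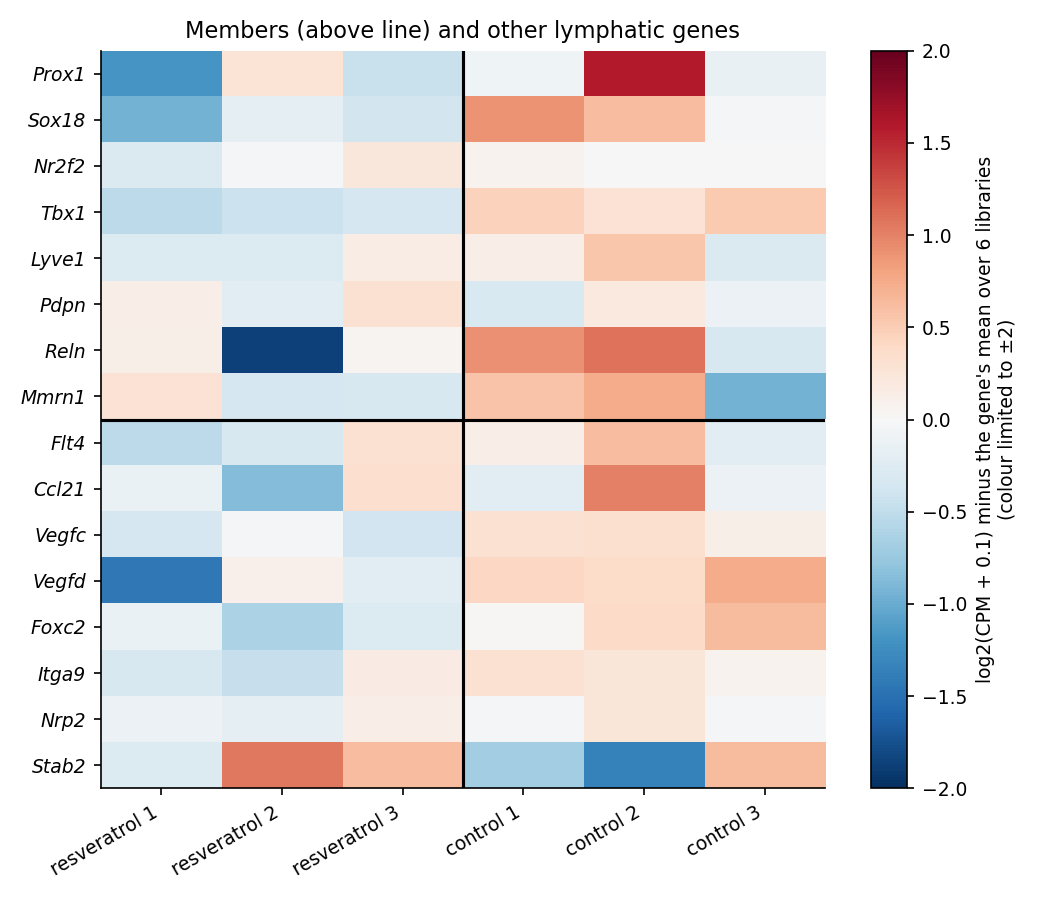
Each cell gives log2(CPM + 0.1) of a gene in a library minus the gene's mean over the 6 libraries (colour limited to ±2); members stand above the line and other lymphatic genes below it, with resveratrol libraries left of control. Prox1, Lyve1, Reln, Mmrn1, Flt4 and Ccl21 are highest in control 2, and Tbx1, Sox18, Vegfc, Vegfd and Foxc2 are lower in every resveratrol library than in any control.

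A list of 60 other genes of lymphatic growth and development was read from the same fits. It was chosen with earlier results of these data known, so its counts are a description and not independent support. Of its 57 tested genes, means were lower for 42 and higher for 15, with a median log2 fold change of -0.46. Over all tested genes 51.2% had lower means. By edgeR 0 passed the adjustment, with 25 lower and 4 higher at an unadjusted p under 0.05 (11.7% and 7.84% of all tested genes). The groups did not overlap for 24 genes lower and 5 higher in resveratrol (14.4% and 12.2% of all tested genes). DESeq2 called 11 lower and 2 higher of 58, where it called 4.64% and 2.23% of 14666 genes. Its calls on the list numbered 9 to 18 when 1 library was left out. In the Oct libraries alone they numbered 6, with 0 higher and 6 lower. The same shares over all genes stand beside the counts by role and by cell type below. The list is not specific to lymphatic vessels: 5 of its genes, Cdh5, Tie1, Tek, Kdr and Flt1, also stand on the blood vessel marker list used below.

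All 7 tested ligands and processing factors had lower means in resveratrol (median -0.81). Vegfc, the main lymphatic growth factor, had 4.32, 5.42 and 4.21 CPM in resveratrol, against 6.78, 6.88 and 5.98 CPM in control. The groups did not overlap (log2 fold change -0.49 ± 0.17, edgeR adjusted p = 0.187, DESeq2 0.118). Ccbe1, which with ADAMTS3 lets VEGF-C be cut to its active form, had 16.3, 19.3 and 27.3 CPM in resveratrol and 28.4, 45.4 and 30.8 CPM in control, also with no overlap. Adm, which encodes adrenomedullin, overlapped between the groups (-0.81 ± 0.38). DESeq2 called Adamts14, another procollagen protease that can process VEGF-C (-1.49 ± 0.34), and the TIE2 ligands Angpt1 (-1.40 ± 0.30) and Angpt2 (-0.75 ± 0.22), all lower in resveratrol. Vegfd had 0, 7 and 5 counts in resveratrol and 9, 9 and 13 counts in control, too few for edgeR's filter. DESeq2 did not call it (log2 fold change -1.39, adjusted p = 0.486).

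Receptors had lower means in 8 of 9 genes (median -0.39), and DESeq2 called Tie1, the orphan receptor partner of TIE2 (-0.70 ± 0.13), and Ramp2, which makes CALCRL an adrenomedullin receptor (-0.79 ± 0.19). Nrp2, the coreceptor of VEGFR-3, averaged 91.8 ± 11.2 CPM in resveratrol and 99.2 ± 11.3 CPM in control (SD, n = 3 each). Itga9, an integrin of lymphatic valves, averaged 5.91 ± 1.43 and 7.74 ± 0.673 CPM in resveratrol and control. Both overlapped between the groups.

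Other transcription factors had lower means in 7 of 8 genes (median -0.59). DESeq2 called Gata2, which lymphatic valves need, at 1.20, 1.37 and 1.32 CPM in resveratrol, against 4.63, 2.42 and 2.20 CPM in control. Foxc2, a second valve factor, had 28, 19 and 26 counts in resveratrol and 30, 42 and 51 counts in control, with no overlap (-0.78 ± 0.31, edgeR adjusted p = 0.257). Foxc1 differed by 0.0079 ± 0.10, and Sox7, a close relative of Sox18, by -0.026 ± 0.10. Sox17, the other SOX F gene, was at -0.63 ± 0.20 with no overlap (DESeq2 adjusted p = 0.0722), chosen for mention after its value was seen.

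Junction, valve and flow genes were mixed, with lower means in 6 and higher means in 3 of 9 (median -0.29). DESeq2 called Cldn5, a tight junction protein (-0.86 ± 0.18), and Cdh5, VE-cadherin (-0.74 ± 0.20). Piezo1, a mechanosensitive channel, differed by 0.29 ± 0.12 and Ephb4, a venous and lymphatic receptor of ephrin B2, by -0.28 ± 0.088. Leukocyte and fluid handling genes had lower means in 3 of 6 (median -0.037), with DESeq2 calling 0 of them (edgeR 0 also, and 1 at an unadjusted p under 0.05). Ackr4, a scavenger of CCL21, differed by -0.75 ± 0.57.

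Genes that restrain vessel growth also had lower means, in 5 of 6 (median -0.69). DESeq2 called Sema3g, a semaphorin (-0.90 ± 0.15), and Flt1, a decoy receptor for VEGF-A (-0.60 ± 0.17). Thbs1, thrombospondin 1, differed by -0.37 ± 0.39 and Sema3f by 0.041 ± 0.082. Paralogs and partners of the members were split, with 6 lower and 6 higher means among 12 (median -0.047). Mmrn2, an endothelial relative of Mmrn1, was called lower by DESeq2 (-0.87 ± 0.21). Called higher were Lrp8, a reelin receptor, at 16.5, 14.8 and 15.6 CPM in resveratrol, against 8.68, 5.90 and 10.8 CPM in control (0.89 ± 0.21), and Rdx, which encodes radixin, of the ERM family that binds the podoplanin tail (0.43 ± 0.083). Cd44, another podoplanin partner, and Ezr differed by 0.047 ± 0.11 and 0.12 ± 0.068.

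**Figure D4:**
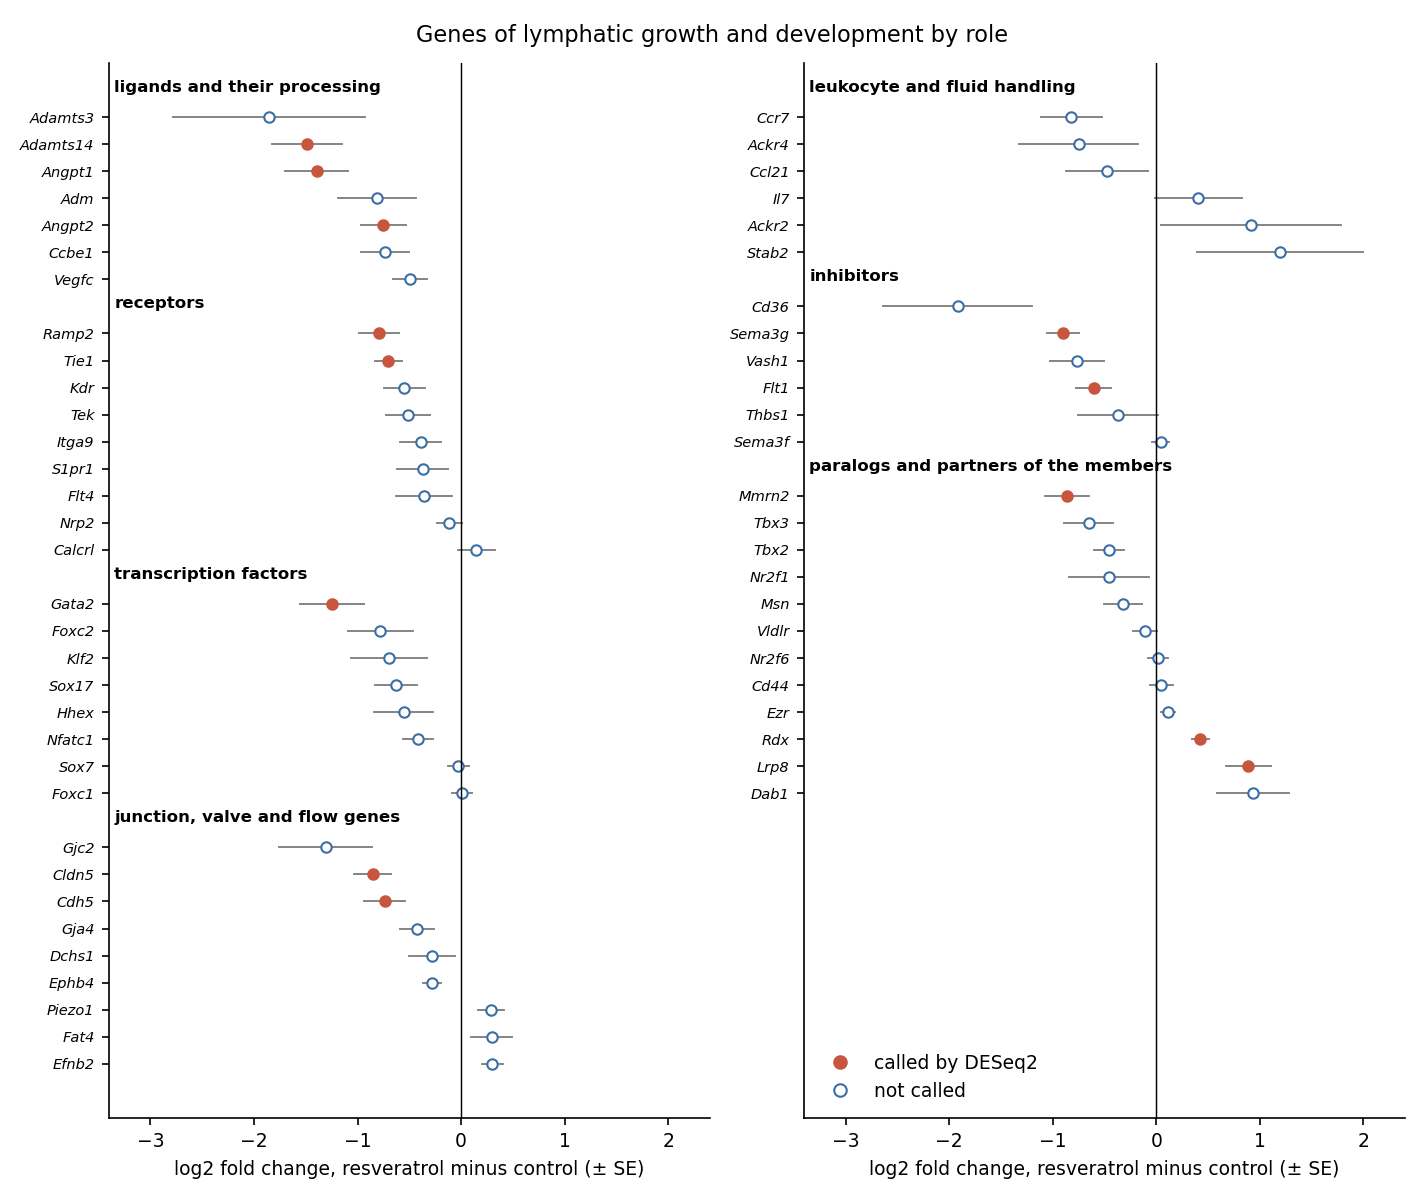
Log2 fold change, resveratrol minus control, ± SE (x axis) of the 57 tested genes of lymphatic growth and development, grouped by role; filled points are genes DESeq2 called. The 7 ligand and processing genes all lie below 0, and the 2 called genes above 0, Lrp8 and Rdx, are partners of members.

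Markers of other cell types, on lists also chosen with earlier results known, were read in the same libraries. The 13 tested blood vessel endothelial markers all had lower means in resveratrol (median -0.60), with 9 not overlapping. Over all tested genes 14.4% were lower without overlap. The markers' summed level was 479 to 586 CPM in resveratrol and 712 to 1057 CPM in control. Their median deviation in log2 CPM from each gene's mean was -0.58, -0.21 and -0.17 in resveratrol libraries 1, 2 and 3. In control libraries 1, 2 and 3 it was 0.61, 0.18 and 0.044, so the gap was widest between the Sep libraries, 1 per group. Eng, endoglin, averaged 77.6 ± 8.38 CPM in resveratrol and 129 ± 20.7 CPM in control, and Erg, an endothelial ETS factor, 85.9 ± 14.0 and 99.2 ± 9.37 CPM. Macrophage markers had lower means in 9 of 11 (median -0.66, summed level 201 to 295 and 294 to 414 CPM in resveratrol and control), T cell markers in 7 of 7 (median -1.54), and pericyte and smooth muscle markers in 7 of 8 (median -0.66). Fibroblast and keratocyte markers had lower means in 8 of 9 (median -0.26) and platelet markers in 2 of 2 (median -0.60). Of the 7 platelet markers, Gp9 and Gp1bb were not listed, and Ppbp, Gp1ba and Treml1 failed the filter on low counts. Medians were nearer 0 for corneal epithelium (0.049), conjunctival and limbal epithelium (-0.18), corneal endothelium (0.0016) and Schwann cell and nerve markers (0.13). Muc5ac, a goblet cell mucin of the conjunctiva, had 1, 3 and 1 counts in resveratrol and 30, 3 and 0 counts in control. The part of these cells in the members' differences was not tested.

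Set against the mean log2 CPM of the 13 blood vessel markers in the same library, Sox18 stood at -1.60, -1.13 and -1.39 in resveratrol, against -0.94, -0.73 and -1.24 in control. These values overlapped, as they did for Tbx1, at -3.44, -3.64 and -3.62 in resveratrol, against -3.63, -3.30 and -2.94 in control. The marker mean itself differed by -0.59 between the groups, without overlap. Against it 1.53% of all tested genes stayed lower without overlap, where 14.4% were lower in CPM. The overlap of Sox18 and Tbx1 on this scale therefore cannot tell whether they followed the vessel markers. Nr2f2 was higher relative to those markers in every resveratrol library, at -0.15, -0.16 and 0.0035, against -0.96, -0.53 and -0.40 in control. The same held for 56.9% of all tested genes. Lyve1, Pdpn, Reln, Mmrn1 and Prox1 overlapped on this scale. Against 11 macrophage markers Nr2f2 and Pdpn were higher without overlap, as were 31.7% of tested genes (1.58% lower), and Lyve1 overlapped, at -1.26, -1.51 and -1.56 in resveratrol and -1.94, -1.45 and -1.92 in control. Against 9 fibroblast and keratocyte markers Pdpn was higher without overlap, as were 51.9% of tested genes (1.55% lower).

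**Figure D5:**
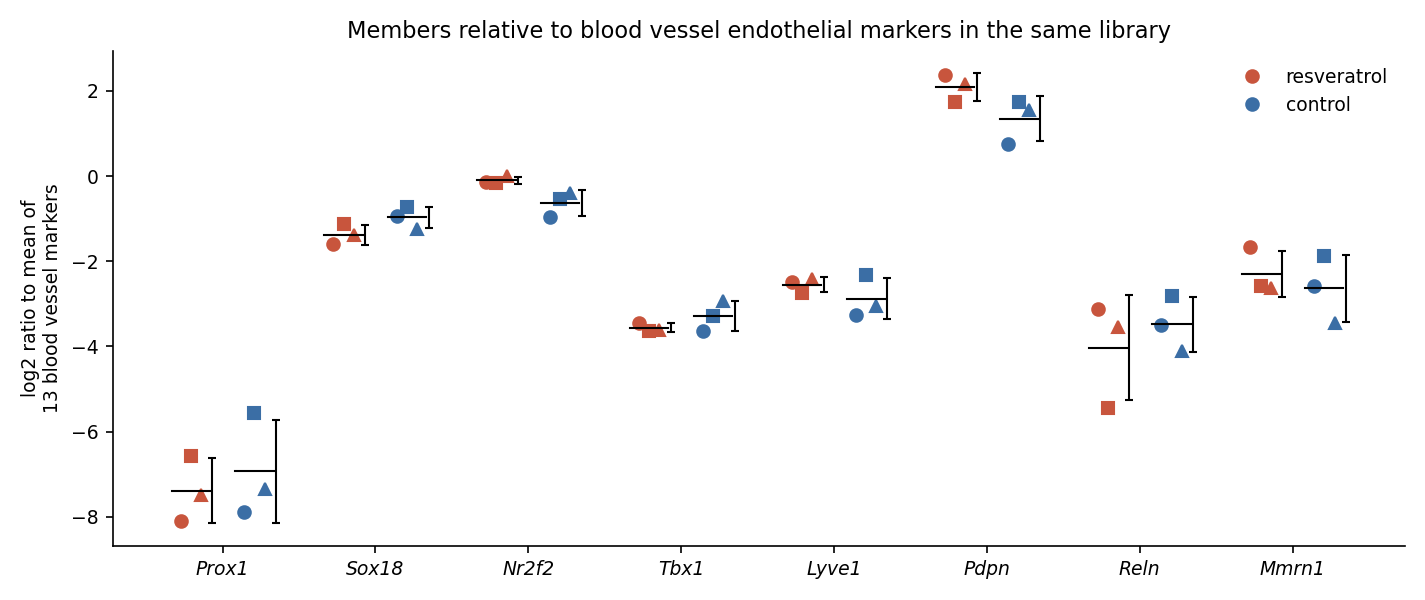
Log2 ratio of each member to the mean of 13 blood vessel endothelial markers in the same library (y axis), with group means (lines) and 1 SD (bars); circle, square and triangle are replicates 1, 2 and 3. Sox18 and Tbx1 overlap between the groups on this scale, and Nr2f2 does not. The marker mean itself is lower in every resveratrol library than in any control library.

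The genes most alike in pattern, by Pearson's r of log2 CPM over the 6 libraries and among genes with a mean of at least 1 CPM, were Sh3bp5, Heyl and Tnfsf12 for Sox18 (r = 0.992, 0.991 and 0.991). They were Cnrip1, Smox and Cd99 for Prox1 (0.993, 0.991 and 0.984), Ifit1bl, Chst2 and Tmub1 for Lyve1 (0.983, 0.980 and 0.979), and Cracdl, Btg1 and Myg1 for Mmrn1 (0.987, 0.981 and 0.979). The 6 libraries include both groups, and 566 of 12315 genes exceeded an r of 0.9 with Sox18, 107 of 12316 with Prox1, 59 with Lyve1 and 60 with Mmrn1. None of these nearest genes is another member, though Prox1, at a mean of 0.32 CPM, was below the limit for being compared. The pattern of Prox1 itself rests on 2 to 35 counts per library.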

How the data were processed

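Corneal RNA was read in pairs on a NovaSeq machine, per the labels' protocols. The deposited values are raw counts per gene and the authors' FPKM values for the same 17771 genes; each library's own FPKM file held the same values as that table (6 of 6). The build mRatBN7.2, R 3.2.0 and DESeq2 stand in the submitters' processing notes. Aligner, counter, annotation and strand setting were not given in the sources used here. The count table's header lacks a separator between 2 names, so columns were taken by number and checked by name. The log2 ratio of count to FPKM differed between control 1 and each other library by a constant (largest SD over genes 2.84e-10).

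Counts were filtered with filterByExpr, which kept 14213 genes and left out 0.0237% of counts, scaled with TMM and tested with edgeR 4.0.16 (glmQLFTest, Benjamini-Hochberg, threshold 0.05) in R 4.3.3. Standard errors and 95% intervals come from limma 3.58.1, run on log2 CPM (prior count 2), which is also the scale of ratios and of Sep and Oct differences. DESeq2 1.42.0 was an alternative. The scripts were tested on simulated data. An exact permutation test of 3 against 3 cannot go below 0.1, so none was made.

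Genes named are the 8 members and a fixed set of lymphatic genes. From each role come the 2 tested genes with the highest CPM and those DESeq2 called. Others, such as Sox17, Kdr, Tek, Mrc1, Cd163, Folr2, Stab1, Clec1b and Muc5ac, were chosen after their values were seen. The members and lists were chosen with earlier results of these data known. Of the gene symbols, 16144 matched a RefSeq symbol, including all 8 members.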

Additional observations from a re-analysis of the deposited data

How the results depend on the processing

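Every tested member kept its direction under every alternative run except Nr2f2, whose log2 fold change of -0.049 turned to 0.095 with edgeR and 0.11 with DESeq2 in the Oct libraries alone. Without resveratrol 1 it was 0.078 with edgeR and 0.092 with DESeq2, and over edgeR's leave-outs it ranged from -0.17 to 0.078. Members called by edgeR or limma numbered 0 under DESeq2 size factors, library size alone, no filter, a stricter filter (1 CPM in 3 libraries), limma voom, limma on log2(FPKM + 1) or log2(FPKM + 0.1), a covariate for the endings, the Oct libraries alone and a threshold of 0.1. DESeq2 called 2 members, 13 pathway genes and 1007 of all genes. With 1 library left out, edgeR called 0 members, 0 pathway genes and 0 to 21 of all genes (1 without resveratrol 2, 21 without control 3), and the members' median ranged from -0.76 to -0.092. DESeq2 leave-outs and its fit of the Oct libraries alone were added after the data were seen. Without resveratrol 1, 2 and 3 DESeq2 called 530, 642 and 826 of all genes, 11, 9 and 16 pathway genes and 1, 2 and 2 members. Without control 1, 2 and 3 it called 623, 390 and 1042 of all genes, 10, 9 and 18 pathway genes and 1, 1 and 2 members, with a members' median of -0.076 without control 2 and -0.74 without control 3. In the Oct libraries alone it called 404 genes, 6 pathway genes and 0 members. The cause of these shifts was not tested. Replicate numbers were not taken as pairs, since same-numbered libraries' deviations from group means correlated at -0.0044, -0.012 and -0.023. With the replicate block edgeR called 0 genes, 0 members and 0 pathway genes, and the members' median was -0.27. Depth limits Prox1, Vegfd, Stab2 and Clec1b.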
